A study of Gossypium hirsutum with 6 samples.

Results

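The genes of sucrose cleavage and sugar transport were examined in ovules of upland cotton (*Gossypium hirsutum*) cultured with putrescine (Put), a diamine made by plants, or with water (CK). A protein-coding gene was taken when its description contained sucrose synthase, invertase, beta-fructofuranosidase (the systematic name of invertase), SWEET, sucrose transport or sugar transport protein, and when its counts in the 6 samples summed to at least 60. The rule did not use the difference between the conditions. Of 100562 listed genes, 67585 were protein-coding, 186 had a matching description and 108 of these reached 60 counts. The lowest members were LOC107949600 with 72 counts, LOC107949664 with 86 and LOC107938655 with 95, and the highest genes left out were LOC107924200 and LOC107901479 with 59 each and LOC107953582 with 44.

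The cotton fiber is a single cell of the ovule epidermis, and it grows on sucrose that reaches the ovule from the leaves. Sucrose synthases split sucrose reversibly into fructose and UDP-glucose, the precursor of cellulose, whereas invertases split it irreversibly into glucose and fructose. Acid invertases act in the vacuole, where hexoses help to hold the turgor of an expanding cell, insoluble invertases act in the cell wall, and alkaline/neutral invertases act in the cytosol and in organelles. SWEET proteins let sugars pass a membrane down their gradient, and the sucrose transport proteins (SUC) and sugar transport proteins (STP) carry sucrose and monosaccharides together with protons.

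All 6 samples were whole ovules of the wild-type cultivar ZM24, taken from bolls on the day of anthesis (0 DPA, days post anthesis) and kept in the dark. There were 3 samples with 10 μmol/L Put and 3 CK samples, which had water in place of Put, and poly(A) RNA was sequenced after 2 d of culture. The comparison asks how gene expression differed while Put was present in the medium. The study states that ovules were divided at random into replicates, and no label names separate plants or cultures, so p-values here measure the spread between these samples, which may be technical.

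The totals were 16974557 to 18454734 counts per Put sample and 19131678 to 19463059 per CK sample, so that 3 counts correspond to 0.153 to 0.179 CPM (counts scaled to the library size). Intervals and floors from counts cover counting error only. Genes listed as markers of fiber cells, of the E6 and expansin-A4 descriptions, summed to 9730 to 9860 CPM with Put and 2180 to 2230 CPM in CK. Of 18 tested genes 8 were higher and 5 lower (72.2% called, against 36.6% of all tested genes), and 0 of the 19 listed were at 0 in all samples. Ovule markers summed to 593 to 608 CPM with Put and 626 to 633 CPM in CK, with 3 of 14 tested genes higher and 8 lower (78.6% called, median log2 fold change of -0.34) and 2 of the 17 listed at 0 in all samples. Of these, the 4 genes of AGL11, a MADS-box factor of ovule identity, had log2 fold changes of 0.03 to 0.25, and the BEL1-like genes had log2 fold changes of -1.56 to -0.04. Markers of green tissue summed to 194 to 201 CPM with Put and 236 to 239 CPM in CK, and pollen markers to 43.9 to 47.6 CPM with Put and 43.8 to 45.2 CPM in CK, with 8 of 57 and 7 of 16 at 0 in all samples. Of 37 tested green tissue markers 1 was higher and 13 were lower (37.8% called), and of 6 tested pollen markers 1 was higher and 1 was lower (33.3% called). Both called shares are near the 36.6% of all tested genes. The part of these differences in the results on the sugar genes was not tested. Across all tested genes, the log2 fold change fell with gene length (Spearman's rho of -0.237 across genes, which are not independent replicates).

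Of the 108 members, all of which were tested, 32 were higher with Put (29.6%, against 18.4% of the 51764 genes tested) and 38 were lower (35.2%, against 18.2%) at an adjusted p under 0.05 in edgeR's quasi-likelihood test with Benjamini-Hochberg adjustment over all tested genes. Together 64.8% of the members were called, against 36.6% of all tested genes. The members were also the more deeply counted genes, with a median of 1569 counts over the 6 samples, against 939 for all tested genes. The Put and CK samples did not overlap in CPM in 74 members (68.5%), against 45.4% of all tested genes. A log2 fold change of at least 1 was reached by 7 higher members, a change that 3.8% of all tested genes reached, and by 11 lower members, against 1.92% of all tested genes. The median log2 fold change was -0.09 over the members and 0.00 over all tested genes. RNA of whole ovules cannot tell fewer cells of a type from less RNA per cell.

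**Figure D1:**
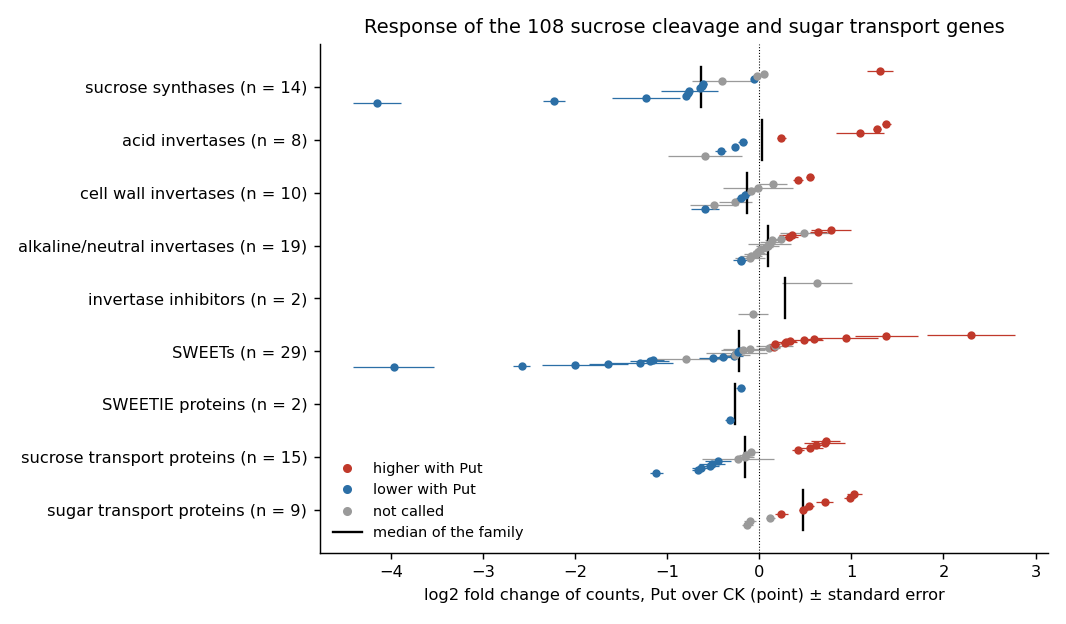
Log2 fold change of counts, Put over CK, of the 108 members by family, as the fitted value of each gene (point) with its standard error (bar); red points were higher with Put, blue points lower and grey points not called, and the black line is the median of the family. The sucrose synthases lie mostly left of 0 with a median of -0.63, and the sugar transport proteins lie mostly right of 0 with a median of 0.48.

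Most sucrose synthase genes were lower with Put. Of 14 members, 10 were lower, 1 was higher and 3 were not called (78.6% called, against 36.6% of all tested genes). The median log2 fold change was -0.63. The summed FPKM (fragments scaled by gene length and by sequencing depth) of the family was 864.8, 874.8 and 869.8 with Put and 1084, 1095 and 1083 in CK, a ratio of 0.80. No Put sample reached the lowest CK sample.

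The family was led by LOC107907080 on D05 (3105706 to 3110071, minus strand, positions on the Gossypium_hirsutum_v2.1 assembly throughout), which had the highest FPKM of all members. It had 282, 288 and 288 FPKM with Put and 288, 294 and 290 FPKM in CK, and its log2 fold change of -0.02 ± 0.02 (standard error) did not pass the test (adjusted p = 0.385, edgeR). Its copy on the other subgenome, LOC107958826 on A05, had a mean of 119 FPKM with Put and 116 FPKM in CK and was not called either, although its Put and CK values did not overlap and it was called higher with offsets for gene length (log2 fold change of 0.11). LOC107907080 was called lower only with library sizes without TMM (log2 fold change of -0.05, adjusted p = 0.0401, edgeR). LOC107901027 on D06 (15645576 to 15649930, minus strand) had 143, 146 and 143 FPKM with Put and 147, 151 and 153 FPKM in CK. Its log2 fold change of -0.06 ± 0.02 was called at an adjusted p of 0.0204 in edgeR, but the call was lost without CK replicate 2 or 3 (adjusted p = 0.082 and 0.123, edgeR) and without Put replicate 1 or 3 (adjusted p = 0.0523 and 0.0636, edgeR), and the sign turned with offsets for gene length. The means of LOC107907080, LOC107958826 and LOC107901027 thus differed little between the conditions, unlike those of LOC107962183, which is second in the family by mean FPKM.

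The lower sum came with LOC107962183 and other abundant members. LOC107962183 on A06 (22954497 to 22958948, minus strand) had 116, 119 and 117 FPKM with Put and 205, 204 and 203 FPKM in CK. Every Put value was far below every CK value, and the log2 fold change was -0.79 ± 0.02 (adjusted p = 8.55e-37, edgeR). Without this gene the family still summed to 748.5, 756.2 and 752.8 FPKM with Put and 878.9, 891.3 and 880.4 FPKM in CK.

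A pair described as sucrose synthase 2, named here after its values were seen, changed alike on both subgenomes. LOC107926875 on A08 averaged 82.5 ± 2.6 FPKM with Put and 129 ± 3.03 FPKM in CK, and LOC107910106 on D08 averaged 53.8 ± 1.19 FPKM with Put and 92.2 ± 1.29 FPKM in CK (SD, n = 3 each). Their log2 fold changes were -0.64 and -0.77. The pair LOC121212571 on A13 and LOC107893375 on D13, also chosen after its values were seen, had log2 fold changes of -0.61 and -0.62, with the Put values of each copy below its CK values.

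The largest decreases of the family were in a weakly expressed pair on A07 and D07. LOC107942366 on D07 (1870733 to 1876410, minus strand) had 6, 3 and 10 counts with Put and 116, 134 and 132 counts in CK, an 18.0-fold lower mean CPM with Put, and a log2 fold change of -4.15 ± 0.26 (adjusted p = 3.07e-19, edgeR). LOC107929861 on A07 (1911769 to 1916712, minus strand) had 60, 65 and 65 counts with Put and 337, 357 and 300 counts in CK, a log2 fold change of -2.23 ± 0.12. The conditions were far apart in both copies, and the D copy was close to the smallest detectable count with Put. The D copy also reached the limit of 60 counts only through CK, so the rule for members favoured a large decrease in it. The A copy held 92.6%, 96.4% and 89.1% of the pair's FPKM with Put and 78.5%, 77.0% and 74.0% in CK.

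A single sucrose synthase was higher with Put, LOC107901030 on D06 (15517460 to 15521279, plus strand), which lies near LOC107901027. It had 159, 150 and 139 counts with Put and 70, 62 and 69 counts in CK, without overlap, and a log2 fold change of 1.31 ± 0.14 (adjusted p = 6.96e-11, edgeR). Its level was low, with a mean of 2.9 FPKM with Put and 1.17 FPKM in CK. The remaining members, described as sucrose synthase 5 or 6, had means under 1 FPKM in both conditions. Sucrose synthase genes are long, with a median of 2825.5 bp, against 1781 bp for all tested genes, and 8 members were lower and 2 higher in a fit whose offsets took up the trend with gene length.

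**Figure D2:**
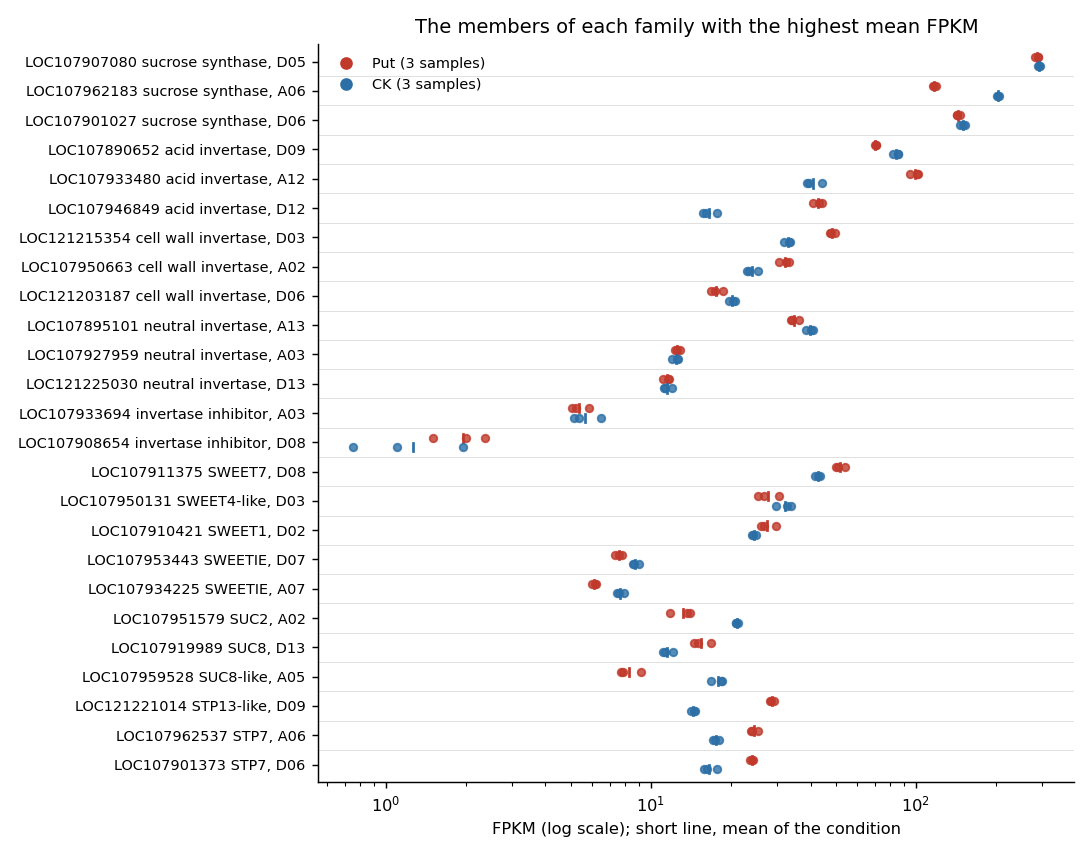
FPKM per sample (points, logarithmic axis) of the members with the highest mean FPKM in each family, up to 3 per family, with Put in red above CK in blue and the mean of each condition as a short line. The leading sucrose synthase LOC107907080 lies near 286 FPKM with Put and 291 FPKM in CK, whereas the acid invertases LOC107933480 and LOC107946849 stand clearly to the right with Put.

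Acid invertases, the soluble enzymes of the vacuole, were split between genes that were higher and genes that were lower. Of 8 members, 4 were higher with Put, 3 were lower and 1 was not called (87.5% called, against 36.6% of all tested genes). The median log2 fold change was 0.03. The summed FPKM was 278.8, 274.6 and 278.1 with Put and 213.7, 207.4 and 212.1 in CK, a ratio of 1.31.

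A pair on A12 and D12 decided the direction of this sum. LOC107933480 on A12 (101574229 to 101577690, plus strand) had 101, 94.7 and 102 FPKM with Put and 44.3, 39.4 and 38.9 FPKM in CK. The mean CPM was 2.43-fold higher with Put, and the log2 fold change was 1.28 ± 0.04 (adjusted p = 2.02e-34, edgeR). LOC107946849 on D12 (55712302 to 55715980, plus strand), described as vacuolar, had 43.2, 40.9 and 44.2 FPKM with Put and 16.1, 15.7 and 17.7 FPKM in CK. With a log2 fold change of 1.38 ± 0.05 it changed by about as much as its A copy, and the share of the A copy in the pair was 69.9 ± 0.178% with Put and 71.2 ± 2.35% in CK (SD, n = 3 each), with overlap.

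The other acid invertases together went the other way. Without the A12 and D12 pair, the family summed to 134.5, 139.1 and 131.8 FPKM with Put and 153.4, 152.4 and 155.5 FPKM in CK. LOC107890652 on D09 (49617764 to 49622316, minus strand) had the highest mean FPKM of the family in CK, with 70.5, 70.5 and 70 FPKM with Put and 85.3, 81.7 and 85.4 FPKM in CK and a log2 fold change of -0.26 ± 0.03 (adjusted p = 3.91e-10, edgeR). Put values were below all CK values in this gene and in its A09 copy LOC107896510, whose log2 fold change was -0.42 ± 0.06. In this way the order of the genes by FPKM differed between the conditions, LOC107933480 being first with Put and LOC107890652 first in CK.

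The cell wall invertases, which split sucrose outside the cell, had changes of less than 1 on the log2 scale. Of 10 members, 2 were higher with Put, 3 were lower and 5 were not called (50% called, against 36.6% of all tested genes). Both higher genes belong to 1 homeolog pair and had the highest FPKM of the family. LOC121215354 on D03 had 49.5, 47.2 and 47.7 FPKM with Put and 33.4, 31.9 and 33.3 FPKM in CK, and LOC107950663 on A02 had 33.3, 32.2 and 30.3 FPKM with Put and 23.4, 25.4 and 23.1 FPKM in CK. The conditions did not overlap in either gene, and the log2 fold changes were 0.55 ± 0.04 and 0.42 ± 0.05 (adjusted p = 1.31e-16 and 1.06e-09, edgeR). LOC121203187 on D06 was lower, with 16.8, 17.5 and 18.7 FPKM with Put and 20.4, 20.7 and 19.7 FPKM in CK. The family without the A02 and D03 pair summed to 50.01, 49.32 and 52.39 FPKM with Put and 54.25, 60.64 and 56.06 FPKM in CK, so the higher sum of the whole family with Put (a ratio of 1.15) rested on that pair.

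Among the alkaline/neutral invertases, most genes were not called. Of 19 members, 4 were higher with Put, 2 were lower and 13 were not called, a called share of 31.6% that is below that of all tested genes. The summed FPKM was 131.7, 132.0 and 129.7 with Put and 130.7, 129.4 and 130.9 in CK, with overlap. The leading gene, LOC107895101 on A13, described as invertase D, had 34.0, 36.3 and 33.7 FPKM with Put and 40.2, 38.4 and 41.0 FPKM in CK, a log2 fold change of -0.20 ± 0.04 (adjusted p = 5.57e-05, edgeR). Its D13 copy LOC121225030 had a log2 fold change of 0.00 ± 0.07, and the invertase B gene LOC107927959 on A03 one of 0.02 ± 0.07. The call of LOC107908674 on D02, the homeolog of LOC107927959, was marginal (log2 fold change of -0.20 ± 0.08, adjusted p = 0.0429, edgeR) and was lost with DESeq2 (adjusted p = 0.117) and in each of the 6 fits that left out 1 sample (adjusted p = 0.0642 to 0.105, edgeR). Among the 4 higher genes was LOC107916214 on D10, an invertase C described as mitochondrial and chosen after its values were seen, which had 368, 356 and 345 counts with Put and 238, 247 and 280 counts in CK.

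The 2 genes described as putative invertase inhibitors, small proteins that bind invertases, were not called, and 0 were past an unadjusted p of 0.05 in edgeR or an adjusted p of 0.05 in DESeq2. LOC107933694 on A03 had 77, 74 and 84 counts with Put and 83, 107 and 86 counts in CK, and LOC107908654 on D08 had 24, 14 and 19 counts with Put and 21, 12 and 8 counts in CK. The values of the conditions overlapped in both. The log2 fold change of LOC107908654 was 0.63 ± 0.38, so at its counts even a difference that is not small could go undetected.

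Over all cleaving enzymes, the summed FPKM of sucrose synthases was 1.59, 1.63 and 1.62 times that of all invertases with Put and 2.38, 2.41 and 2.38 times in CK. Sucrose synthase transcripts outweighed those of invertases in every sample, but by less with Put. The ratio of acid to cell wall invertases was 2.12 ± 0.0197 with Put and 1.86 ± 0.0861 in CK (SD, n = 3 each), with no overlap. These sums are descriptions, and for any single value of 3 samples against 3 the smallest two-sided p of an exact permutation test is 0.1.

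**Figure D3:**
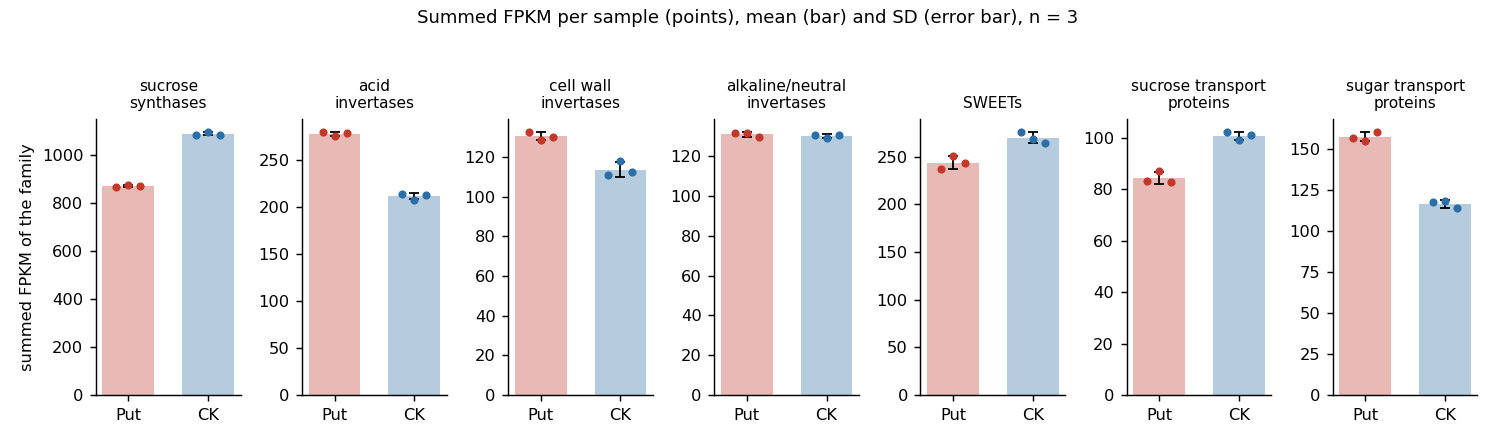
Summed FPKM of 7 families in each sample (points), with the mean (bar) and SD (error bar) of 3 Put samples on the left and 3 CK samples on the right, each axis starting at 0. The sucrose synthase, SWEET and sucrose transport sums are lower with Put, the acid invertase, cell wall invertase and sugar transport sums are higher, and the alkaline/neutral invertase sum overlaps between the conditions.

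The SWEETs, the largest family, held the widest range of changes. Of 29 members, 10 were higher with Put, 12 were lower and 7 were not called (75.9% called, against 36.6% of all tested genes). The median log2 fold change was -0.22, and the fitted values ran from -3.97 to 2.30. The count of higher members was 5 with DESeq2 and 6 with offsets for gene length, and 11 members were lower in each of these fits.

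Of the 12 lower SWEETs, 7 were described as SWEET10, SWEET14 or SWEET15, which belong to the clade known in *Arabidopsis thaliana* to carry sucrose. Of 10 such members, 7 were lower and 2 were higher, with a median log2 fold change of -0.64. Of all tested genes 18.2% were lower and 18.4% were higher, the shares to set beside this and the SWEET groups below. LOC107909537 on D02 (64260280 to 64262545, minus strand), a SWEET15, had 5.25, 5.29 and 5.9 FPKM with Put and 35.2, 33.0 and 30.5 FPKM in CK. Its mean CPM was 5.99-fold lower with Put, with a log2 fold change of -2.58 ± 0.09 (adjusted p = 2.81e-31, edgeR). This gene had the second highest mean FPKM of all SWEETs in CK. The family without it summed to 232.2, 245.6 and 237.2 FPKM with Put and 240.8, 236.0 and 233.9 FPKM in CK, with overlap, so the lower sum of the whole family (a ratio of 0.904) rested on LOC107909537.

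A SWEET14-like pair was at or near the smallest detectable count with Put. LOC107952262 on A08 (15064824 to 15066454, minus strand) had 3, 3 and 1 counts with Put and 43, 41 and 44 counts in CK. The ratio of the summed counts, scaled by library size, was 0.0611 (95% interval of counting error 0.0241 to 0.129), and the log2 fold change was -3.97 ± 0.44 (adjusted p = 8.87e-11, edgeR). Its D08 copy LOC107913253 (11803728 to 11805295, minus strand) had 8, 4 and 12 counts with Put and 37, 35 and 36 counts in CK, a log2 fold change of -2.0 ± 0.36. Both copies were rare even in CK, at means of 1.8 and 1.63 FPKM. Both reached the count limit for members only through CK, so the rule for members favoured a large decrease in them.

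Further genes of this clade went in both directions. LOC107926138 on A07, described as SWEET10-like, had 35, 40 and 25 counts with Put and 97, 73 and 85 counts in CK (log2 fold change of -1.19 ± 0.21). The SWEET15 pair on A04 and D04, chosen after its values were seen, split, with LOC107898995 on A04 at 0.16 ± 0.06 and LOC121215921 on D04 at -0.23 ± 0.07 on the log2 scale. This split was marginal. LOC107898995 was not called with offsets for gene length (log2 fold change of 0.10, adjusted p = 0.245, edgeR), with DESeq2 (adjusted p = 0.112), with library sizes without TMM (adjusted p = 0.0826, edgeR) or in 5 of the 6 fits that left out 1 sample, all but that without CK replicate 2 (adjusted p of up to 0.108, edgeR). LOC121215921 lost its call without CK replicate 1, Put replicate 1 or Put replicate 3 (adjusted p = 0.0639, 0.0616 and 0.0613, edgeR). A SWEET10 on A03, LOC107949600, which is the member nearest to the limit of 60 counts, had 23, 13 and 23 counts with Put and 7, 2 and 4 counts in CK and the largest increase of all members, 2.30 ± 0.48 on the log2 scale (adjusted p = 9.35e-05, edgeR). It was named after its values were seen. It reached 60 counts only through its Put samples, so the rule for members favoured a large increase in it.

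Of 5 members described as SWEET16 or SWEET17, which in *A. thaliana* sit in the vacuolar membrane and carry fructose, 2 were lower and 1 was higher. LOC107919581 on D13, a SWEET16-like gene, had 32, 26 and 19 counts with Put and 83, 96 and 90 counts in CK, a log2 fold change of -1.64 ± 0.21 (adjusted p = 6.05e-09, edgeR). LOC107896696 on A10, a SWEET17, had 10, 9 and 11 counts with Put and 27, 22 and 34 counts in CK, a log2 fold change of -1.30 ± 0.36. The conditions did not overlap in either gene. LOC107896696 reached the count limit for members only through CK, so the rule for members favoured a decrease in it. The D10 copy of LOC107896696, LOC107916180, had the higher level of the pair, at means of 4.16 FPKM with Put and 5.0 FPKM in CK, and was not called.

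The members described as SWEET1, SWEET2, SWEET4, SWEET6b or SWEET7, relatives of transporters that carry glucose in *A. thaliana*, held 7 higher and 3 lower genes of 14, with a median log2 fold change of 0.17. They include the 3 SWEETs with the highest mean FPKM. Some calls of this group were lost with offsets for gene length, in genes named after their values were seen. These were the higher SWEET2 genes LOC107885968 and LOC107941427 (adjusted p = 0.0667 and 0.0917, edgeR) and the lower SWEET4-like gene LOC107959844 (adjusted p = 0.656, edgeR). LOC107911375 on D08, a SWEET7, had 51.0, 53.9 and 49.9 FPKM with Put and 43.3, 42.6 and 41.7 FPKM in CK (log2 fold change of 0.28 ± 0.05, adjusted p = 5.43e-06, edgeR). All Put values were above all CK values in this gene, and its A08 copy LOC107953251 was higher too, at 0.59 ± 0.09 on the log2 scale.

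LOC107950131 on D03, described as SWEET4-like, had 25.4, 26.7 and 30.5 FPKM with Put and 33.9, 32.6 and 29.6 FPKM in CK, and LOC107910421 on D02, a SWEET1, had 26.8, 29.6 and 26.1 FPKM with Put and 24.0, 25.0 and 24.3 FPKM in CK. Both calls were small, with overlap in the first gene and a log2 fold change of 0.17 ± 0.06 in the second, which lost its call with DESeq2 (adjusted p = 0.0522) and without Put replicate 2 (adjusted p = 0.147, edgeR). The A02 copy of LOC107910421, LOC107952021, had means of 2.68 FPKM with Put and 2.39 FPKM in CK and was not called. A second SWEET1 on D03, LOC107950788, was rare but had 28, 27 and 32 counts with Put and 10, 11 and 16 counts in CK, a log2 fold change of 1.38 ± 0.34 (adjusted p = 8.85e-04, edgeR). It reached the count limit for members only through its Put samples, so the rule for members favoured an increase in it.

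The genes named SWEETIE encode a very long protein that is not a SWEET transporter and is known in *A. thaliana* for effects on sugar use. LOC107934225 on A07 had 6.14, 6.22 and 6.01 FPKM with Put and 7.59, 7.91 and 7.46 FPKM in CK, and LOC107953443 on D07 had 7.33, 7.56 and 7.78 FPKM with Put and 8.99, 8.55 and 8.61 FPKM in CK. Both were called lower, at -0.32 ± 0.05 and -0.20 ± 0.05 on the log2 scale, but they are also the family with the longest genes, at a median of 6975.5 bp. With offsets for gene length the values were -0.10 (adjusted p = 0.145, edgeR) and 0.02 (adjusted p = 0.808, edgeR), and neither was called.

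Among the sucrose transport proteins, the proton-coupled carriers of sucrose, 5 of 15 members were higher with Put, 6 were lower and 4 were not called. The called share was 73.3%, against 36.6% of all tested genes. The summed FPKM was 83.28, 87.07 and 82.68 with Put and 102.1, 99.15 and 101.2 in CK, a ratio of 0.837 without overlap. The largest decreases in mean FPKM were in LOC107951579 (13.2 with Put, 21.1 in CK) and LOC107959528 (8.23 with Put, 17.9 in CK). When the FPKM of these genes is taken from the sum of each sample, the conditions overlap, so the lower sum rested on them. LOC107951579 on A02, a SUC2, whose *A. thaliana* namesake loads sucrose into the phloem, had 13.7, 14 and 11.8 FPKM with Put and 20.9, 21.3 and 20.9 FPKM in CK. The gene changed by -0.67 ± 0.06 on the log2 scale (adjusted p = 3.05e-13, edgeR), and its rarer D02 copy LOC107910491 by -0.51 ± 0.14. Its Put values were all below its CK values.

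The genes described as SUC8 or SUC8-like differed in direction between chromosomes. LOC107959528 on A05 had 7.7, 9.16 and 7.85 FPKM with Put and 18.4, 16.9 and 18.5 FPKM in CK, a log2 fold change of -1.12 ± 0.07 (adjusted p = 4.64e-19, edgeR). Its D05 copy LOC107914047 was lower as well, at -0.53 ± 0.09 on the log2 scale. In contrast, LOC107919989 on D13 had 15, 16.8 and 14.5 FPKM with Put and 11.1, 12.1 and 11.3 FPKM in CK, and it and its A13 copy LOC107895105 were higher, at 0.42 ± 0.07 and 0.62 ± 0.09. Thus the SUC8 gene with the highest FPKM was LOC107959528 in CK and LOC107919989 with Put.

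Most sugar transport proteins, which take up monosaccharides with protons, were higher with Put. Of 9 members, 6 were higher, 0 were lower and 3 were not called in edgeR (66.7% called, against 36.6% of all tested genes). The median log2 fold change was 0.48. The counts were also 6 higher and 0 lower with DESeq2, 7 higher and 0 lower with offsets for gene length, and 7 higher and 1 lower at an unadjusted p under 0.05 in edgeR. The summed FPKM was 156.6, 154.7 and 160.2 with Put and 117.4, 118.0 and 113.8 in CK, a ratio of 1.35.

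LOC121221014 on D09 (51636576 to 51640859, plus strand), described as sugar transport protein 13-like, had 28.5, 28.1 and 29.1 FPKM with Put and 14.7, 14.5 and 14.2 FPKM in CK. The log2 fold change of this gene was 0.98 ± 0.06 (adjusted p = 3.46e-21, edgeR), and that of its A09 copy LOC107928606 was 0.71 ± 0.09. The STP13 of *A. thaliana* is a hexose carrier of the plasma membrane. The pair of sugar transport protein 7 genes had 25.4, 24.0 and 23.9 FPKM with Put and 17.2, 18.0 and 17.5 FPKM in CK on A06 (LOC107962537), and 23.7, 24.1 and 24.3 FPKM with Put and 15.8, 17.7 and 16.3 FPKM in CK on D06 (LOC107901373). All Put values were above all CK values in these 4 genes. The log2 fold changes of the sugar transport protein 7 pair were 0.48 ± 0.05 and 0.54 ± 0.05, and the STP7 of *A. thaliana* carries pentoses.

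**Figure D4:**
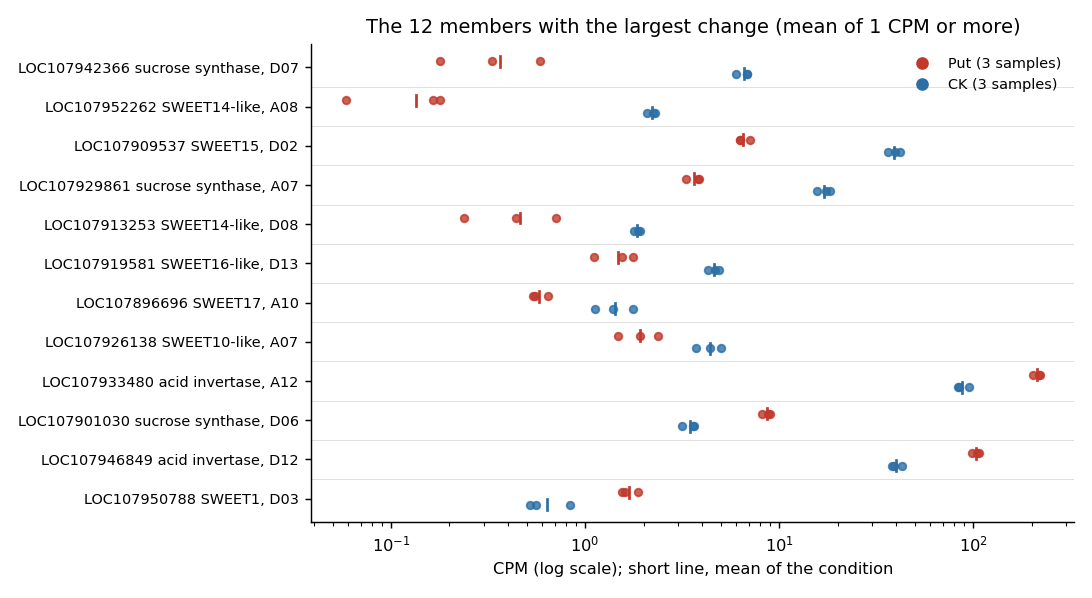
CPM per sample (points, logarithmic axis) of 12 called members, those with the largest absolute log2 fold change once genes under 1 CPM or with overlapping conditions were set aside, ordered from the largest decrease at the top to the largest increase at the bottom, with Put in red above CK in blue and the mean as a short line. There are 8 genes in which Put lies left of CK, led by the sucrose synthase LOC107942366 with means of 0.365 CPM with Put and 6.57 CPM in CK, and 4 in which it lies right of CK.

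Because upland cotton is an allotetraploid with an A and a D subgenome, most members have a homeolog, the copy of the same ancestral gene on the other subgenome. Pairs were formed by shared neighbouring genes, and 38 pairs held 76 of the 108 members. Both copies were higher with Put in 8 pairs and both were lower in 8, the copies were called in opposite directions in 3, only 1 copy was called in 12 and neither was called in 7. When the counts of the copies were summed before the fit, 12 pairs were higher and 14 were lower. Pairs of other genes were not formed, so these counts stand without a share over all pairs. Of single genes, 64.8% of the members and 36.6% of all tested genes were called. How reads that match both copies were counted is not given in the sources used here, so a difference between copies is less certain than their sum.

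The share of the A copy in a pair's FPKM could differ between the conditions, as in the pair of sugar transport protein 5, named after its values were seen. LOC107905118 on D05 had 502, 515 and 486 counts with Put and 264, 285 and 275 counts in CK, a log2 fold change of 1.03 ± 0.08 (adjusted p = 1.63e-16, edgeR). LOC107957750 on A05 had 409, 385 and 419 counts with Put and 495, 469 and 483 counts in CK, which was not called once scaled by library size (log2 fold change of -0.10 ± 0.07). The A copy accordingly held 44.1%, 42.0% and 45.5% of the pair's FPKM with Put and 64.5%, 61.4% and 63.0% in CK.

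The 3 pairs with opposite calls had small changes on the log2 scale. They were named after their values were seen and comprised the acid invertases LOC121211139 on A12 at -0.18 and LOC107886092 on D12 at 0.24, the SWEET15 pair on A04 and D04 given above, and the SWEET7 gene LOC107951377 on A02 at 0.33 with the SWEET4-like gene LOC107950131 on D03 at -0.22. The SWEET15 pair was no longer called in opposite directions in the fits named above, which left 2 such pairs. In each of the 3 pairs the summed counts were not called, with log2 fold changes of 0.01, -0.01 and -0.03. The SWEET7-like gene LOC107947141 on A12, another gene chosen after its values were seen, had 111, 89 and 96 counts with Put and 253, 246 and 232 counts in CK and a log2 fold change of -1.15 ± 0.12, whereas its D12 copy LOC107947178 had 171, 173 and 162 counts with Put and 163, 188 and 172 counts in CK and was not called. The share of the A copy was 38.4 ± 2.76% with Put and 59.9 ± 2.18% in CK (SD, n = 3 each).

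**Figure D5:**
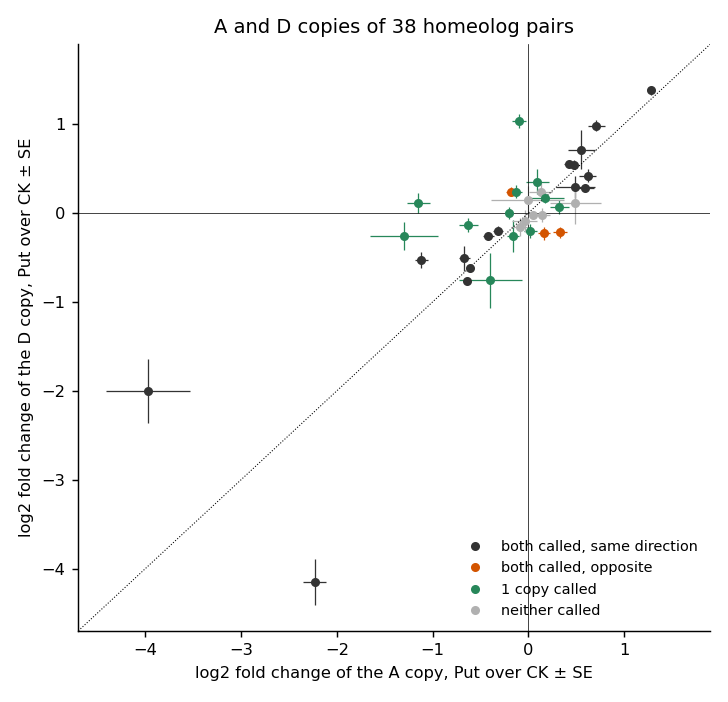
Log2 fold change, Put over CK, of the A copy (horizontal axis) and the D copy (vertical axis) of the 38 homeolog pairs, each point a pair with the standard errors of both copies as bars; the dotted line marks equal change. The 8 pairs with both copies higher and the 8 with both copies lower are black, the 3 opposite pairs orange, the 12 pairs with 1 called copy green and the 7 others grey, and the points at the lower left are the SWEET14-like pair at -3.97 and -2.0 and the sucrose synthase pair at -2.23 and -4.15.

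Around the members, 192 genes of the wider pathway were listed by description and 124 were tested. Of these, 45 were higher with Put and 16 were lower (49.2% called, against 36.6% of all tested genes), with a median log2 fold change of 0.11. UTP-glucose-1-phosphate uridylyltransferase, which interconverts UDP-glucose and glucose-1-phosphate, had 4 of 11 tested genes higher, a called share of 36.4% that is near that of all tested genes, and sucrose-phosphatase, the last step of sucrose synthesis, had 3 of 4 higher (75% called), with 0 lower in either list by edgeR, by DESeq2 or at an unadjusted p under 0.05. Sucrose-phosphate synthase, the step before it, had 2 of 6 higher and 1 lower (50% called). Of the kinases that phosphorylate the hexoses, 7 of 14 fructokinases were higher and 2 were lower (64.3% called), and 4 of 11 hexokinases were higher and 0 were lower (36.4% called, 3 and 0 with DESeq2, 7 and 0 at an unadjusted p under 0.05). The 14 include genes described as chloroplastic and fructokinase-like, which were not called. Among other carriers, 6 of 9 monosaccharide-sensing proteins of the vacuolar membrane were higher and 1 was lower (77.8% called). The ERD6-like sugar transporters had 7 of 19 higher and 0 lower (36.8% called), the inositol transporters 3 of 7 higher and 1 lower (57.1%), and the plastidic glucose transporters 2 of 16 higher and 1 lower (18.8%). The polyol transporters had 6 of 8 lower and 0 higher (75% called, also 6 and 0 with DESeq2 and at an unadjusted p under 0.05) and a median log2 fold change of -0.51.

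Genes described as inhibitor of fructosidase encode further invertase inhibitors, which the description rule did not take. Of 7 tested, 4 were higher with Put and 2 were lower (85.7% called, against 36.6% of all tested genes), and the abundant ones differed in direction. LOC121209402 on A11 averaged 416 FPKM with Put and 257 FPKM in CK (log2 fold change of 0.69 ± 0.03), whereas LOC107895483 on A10 averaged 166 FPKM with Put and 275 FPKM in CK (-0.73 ± 0.03) and LOC107916224 on D10 averaged 92.7 FPKM with Put and 191 FPKM in CK (-1.04 ± 0.04). All of these were chosen after their values were seen.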

How the data were processed

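Ovules of *G. hirsutum* were sequenced by RNA-seq in 3 Put and 3 CK samples, grouped by the treatment in the labels and matched to the columns by name. The authors deposited raw counts per gene, not normalized, and FPKM, which the authors scaled by gene length and by a library size of each sample; no column holds a comparison. The submitters' processing notes name CASAVA and HISAT2 2.0.5, the study names the Gossypium_hirsutum_v2.1 assembly, and the counting program, its use of strand and its treatment of reads that match several genes are not given in the sources used here. Chromosome names came from the RefSeq gene table, which held all 108 members.

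The counts were fitted in R 4.3.3 with edgeR 4.0.16 (filterByExpr, TMM, quasi-likelihood test without covariates, Benjamini-Hochberg adjustment over 51764 genes, threshold 0.05), and the method was tested on simulated data. The standard error is the absolute log2 fold change divided by the square root of F. Samples of 1 condition differed by 1.669 to 1.764 times counting noise (median squared difference over the well-counted genes), so none was a copy of another. The totals, and the precision they give, stand with the results. Alternatives were DESeq2 1.42.0, limma 3.58.1 for genes averaging 0.5 FPKM or more (on the log2 scale after adding 1 or 0.1), other size factors and filters, gene length offsets, stricter thresholds, a replicate block and fits without 1 sample.

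Named genes are the 3 with the highest mean FPKM of each family, the 12 called members with the largest change (mean CPM of 1 or more, no overlap) and their homeologs; others are marked as chosen after their values were seen. The members and lists were chosen with earlier results of these data known. Homeologs were to be paired by protein, but no proteins were used here. They were instead taken as reciprocal best pairs of 1 family across the subgenomes, with at least 5 shared descriptions among the 15 neighbouring genes on each side and no other gene of the family in that window, a rule set after the data were seen. Sequences were not used.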

Additional observations from a re-analysis of the deposited data

How the results depend on the processing

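The 32 higher and 38 lower members numbered 26 to 32 and 31 to 40 over the other tests, normalizations, filters, gene length offsets and a threshold of 0.01, and 27 to 29 and 33 to 35 in fits without 1 sample (16839 to 17055 of all tested genes, against 18936). Over 15 other fits of single genes, which include the fits without 1 sample and the replicate block, 23 of the higher and 28 of the lower members kept their call. A log2 fold change of at least 1 left 7 higher and 11 lower members and 2963 of all tested genes. With homeolog copies summed there were 20 higher, which counts a pair once, and 26 lower. That sum used copies paired by neighbouring genes and was added after seeing the data, and the planned pairing by protein was not run. The replicate block gave 31 higher and 36 lower members and 18661 of all tested genes, but same-numbered samples do not deviate together (correlations of -0.005, -0.0085 and -0.0133), and the numbers were not taken as pairs. Gene length offsets turned the log2 fold change of the sucrose synthase LOC107901027 to 0.01 and that of LOC107953443 (SWEETIE) to 0.02. Of 690 values of the named genes under alternatives, 667 kept direction and side of the threshold, 19 lost and 2 gained a call. Genes of few counts, such as LOC107952262, are limited by depth.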

Other observations

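Of the 186 genes with a matching description, 78 had fewer than 60 counts over the 6 samples, and 35 of these were at 0 in all samples. A single one passed the filter on low counts, the sucrose synthase 6-like gene LOC107924200 on A11, with 11, 1 and 10 counts with Put and 9, 13 and 15 counts in CK, and it was not called (log2 fold change of -0.59 ± 0.50, adjusted p = 0.389, edgeR). The D11 gene LOC107937480, a member named after its values were seen, had 12, 7 and 11 counts with Put and 27, 31 and 21 counts in CK and was called lower (log2 fold change of -1.23 ± 0.37, adjusted p = 0.00612, edgeR). It reached 60 counts only through CK, so the rule for members favoured a decrease in it.

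Among the pathway genes that are no members, a monosaccharide-sensing protein 2 on A13, LOC107894004, chosen after its values were seen, averaged 78.3 ± 1.82 CPM with Put and 27.2 ± 0.503 CPM in CK (SD, n = 3 each), a log2 fold change of 1.53. Cytoplasmic phosphoglucomutase, which interconverts glucose-1-phosphate and glucose-6-phosphate, averaged 73.1 ± 1.16 CPM with Put and 38.8 ± 0.682 CPM in CK for LOC107911553 on D04, also chosen after its values were seen. Of 7 phosphoglucomutases tested, 3 were higher and 2 were lower (3 and 0 with DESeq2), with a median log2 fold change of 0.12. The called share was 71.4%, against 36.6% of all tested genes. The 5 genes of glucose-6-phosphate isomerase, the next enzyme towards glycolysis, had 0 calls by edgeR, by DESeq2 or at an unadjusted p under 0.05.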
